A study of Mus musculus with 6 samples.

Results

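Interferon-stimulated effector genes are the genes whose products carry out the cell-intrinsic antiviral and antimicrobial work that interferons set going. The 44 genes described here were listed by name, from the antiviral, GTPase and ubiquitin-like families that interferons induce, and all 44 were found by symbol among the 55335 genes of the table. Their RNA was measured in RAW264.7 cells, a wild-type mouse macrophage line. Both groups received 200 ng/ml lipopolysaccharide (LPS, a component of the outer membrane of Gram-negative bacteria) for 8 h. The LPS group (3 libraries) had no further treatment. The LPS plus ultrasound group (3 libraries) was also exposed for 10 min, within those 8 h, to pulsed ultrasound of 50 mW/cm2 at 1 MHz, with a duty cycle of 20%, 1 kHz pulse repetition and 200 µs pulses. The single comparison the design allows asks whether ultrasound shifts the LPS-driven transcriptome. The groups share the LPS stimulus, and unstimulated cells were not analysed here; how far LPS had induced each gene was not measured. The labels do not state whether replicate libraries are separate cultures, and every p-value below rests on the spread between libraries, which may be technical.

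In macrophages, LPS engages TLR4, and the TRIF branch of its signalling activates the kinases TBK1 and IKKε and the factor IRF3, which start transcription of interferon beta. Secreted interferon then acts back on the same cells through the receptor chains IFNAR1 and IFNAR2 and the kinases JAK1 and TYK2. A transcription factor complex that includes STAT2 and IRF9 then binds the interferon-stimulated response element in the promoters of genes such as Isg15 and the Ifit genes. Some members also respond to interferon gamma, above all the guanylate-binding proteins and the immunity-related GTPases, and some, including the Ifit genes and Rsad2, can be switched on directly by IRF3.

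Levels are FPKM, the number of sequenced fragments scaled to transcript length and to library size, which lets genes be compared per length. The FPKM of a library summed to 278871 to 292200, and the number of fragments behind a value is not given. Macrophage identity was seen in 10 of 11 markers, which averaged 1 FPKM or more; Mrc1 did not. Among 42 markers of 7 cell types that should be absent, only the kinase gene Lck reached that mean. The summed markers of endothelial cells (0.304 to 0.588 FPKM in the LPS libraries and 0.702 to 1.05 with ultrasound) and tendon cells (0.284 to 0.485 and 0.598 to 0.858) were low and higher with ultrasound, with Emcn, Mkx and Tnmd at 0 in all libraries. The summed B cell markers were lower with ultrasound (0.495 to 0.770 and 0.133 to 0.395 FPKM), with Ms4a1 at 0, and the part of these traces in the results was not tested.

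Both libraries numbered 2 stood apart as high in the members, and ultrasound library 3 as low. Genes were tested where their FPKM averaged 1 or more across the 6 libraries, as it did for 41 members. Of these, 31 were highest in library 2 within the LPS group and 34 in library 2 within the ultrasound group, and 29 were highest in library 2 in both. Over all 11270 tested genes, the share highest in library 2 in both groups was 27.6%, against 70.7% of the members. On the log2(FPKM + 1) scale, with each gene's mean over the 6 libraries taken off, the median member lay at 0.05, 0.40 and -0.08 in LPS libraries 1, 2 and 3 and at -0.16, 0.17 and -0.30 in ultrasound libraries 1, 2 and 3. The medians over all genes stayed between -0.03 and 0.02. The medians thus spanned a wider range between libraries of the same group than the step between the groups, and the library numbered 2 was the high one on both sides. LPS library 2 was the highest of the 6 libraries in 29 tested members (27.6% of all genes) and ultrasound library 3 the lowest in 26 (23.2% of all genes).

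**Figure D1:**
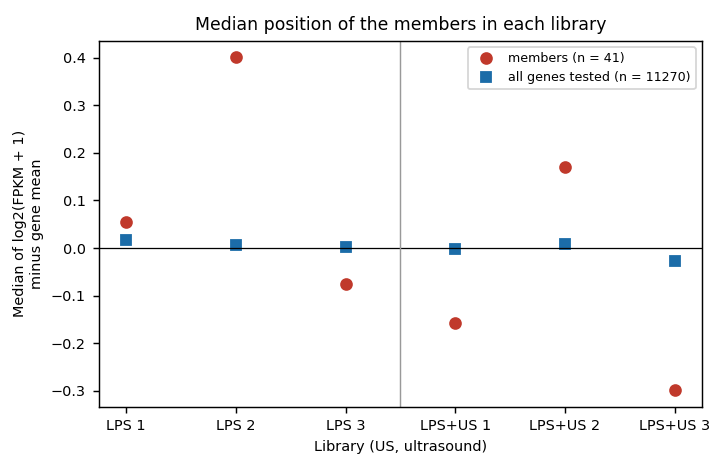
Median of log2(FPKM + 1) minus each gene's mean over the 6 libraries (vertical axis), for the 41 tested members (circles) and all 11270 tested genes (squares), in each library. The members reach 0.40 in LPS library 2 and 0.17 in ultrasound library 2, while all genes stay close to 0.

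With ultrasound, 33 of the 41 tested members had a lower fitted level and 8 a higher one, and the median difference was -0.22 on the log2(FPKM + 1) scale, LPS plus ultrasound minus LPS. Over all tested genes 53.9% were lower and the median was -0.02. No member passed limma's test at an adjusted p below 0.05 (p-values adjusted by the Benjamini-Hochberg method over the 11270 genes; adjusted p = 0.13 to 0.82 for the members), and of all genes 0% passed as lower and 0.0177% as higher. At an unadjusted p below 0.05, 7 members were lower (17.1%, against 9.16% of all genes) and 2 higher (4.88%, against 6.18%). All ultrasound libraries lay below all LPS libraries for 8 members (19.5%, against 13.4% of all genes), namely Ly6e, Bst2, Ifitm3, Ifi44, Xaf1, Daxx, Mx2 and Gbp5. Gbp5 passed the minimum for testing only through the LPS group (mean 2.09 FPKM, against 0.498 with ultrasound), so its separation is no support. All ultrasound libraries lay above all LPS libraries for 2 members, Irgm1 and Ifi35 (4.88%, against 9.8%). Read against these shares, the separation of the groups in the members was not far from that of genes at large.

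The picture differed when libraries with the same number were set side by side. Of the tested members, 31 had the lower value with ultrasound in 3 of 3 pairs of same-numbered libraries (75.6%, against 30.9% of all genes) and 5 were higher in 3 of 3 (12.2%, against 24.3%). The members moved together from library to library, so counts of members here and below are not counts of separate observations. The median member difference was -0.19 in pair 1, -0.29 in pair 2 and -0.22 in pair 3. With the replicate number as a block in limma, the median standard error of the members shrank from 0.17 to 0.07, while that of all genes went from 0.11 to 0.07. In that fit 27 members were lower at an unadjusted p below 0.05 (65.9%, against 17.1% of all genes) and 3 higher (7.32%, against 12.6%). Past the adjusted threshold with the block stood 1 member, Ifit1, as lower (2.44%, against 0.0799% of all genes), and 0 as higher (0.0355% of all genes). A further 6 members lay just outside, Isg15, Ly6e, Bst2, Ifitm3, Ifi44 and Xaf1, each at a limma adjusted p of 0.0582, and Ifit2 at 0.0587. The Benjamini-Hochberg method can give many genes the same adjusted p. Genes outside the members, such as Ikbke, Phf11d and 2210412B16Rik, also had a limma adjusted p of 0.0582 with the block. That value is therefore not particular to the members, and the share of all genes at it is not given here. The labels do not say what the number marks. The pairing was taken in part from these same values, so the smaller standard errors with the block are not independent support for it.

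**Figure D2:**
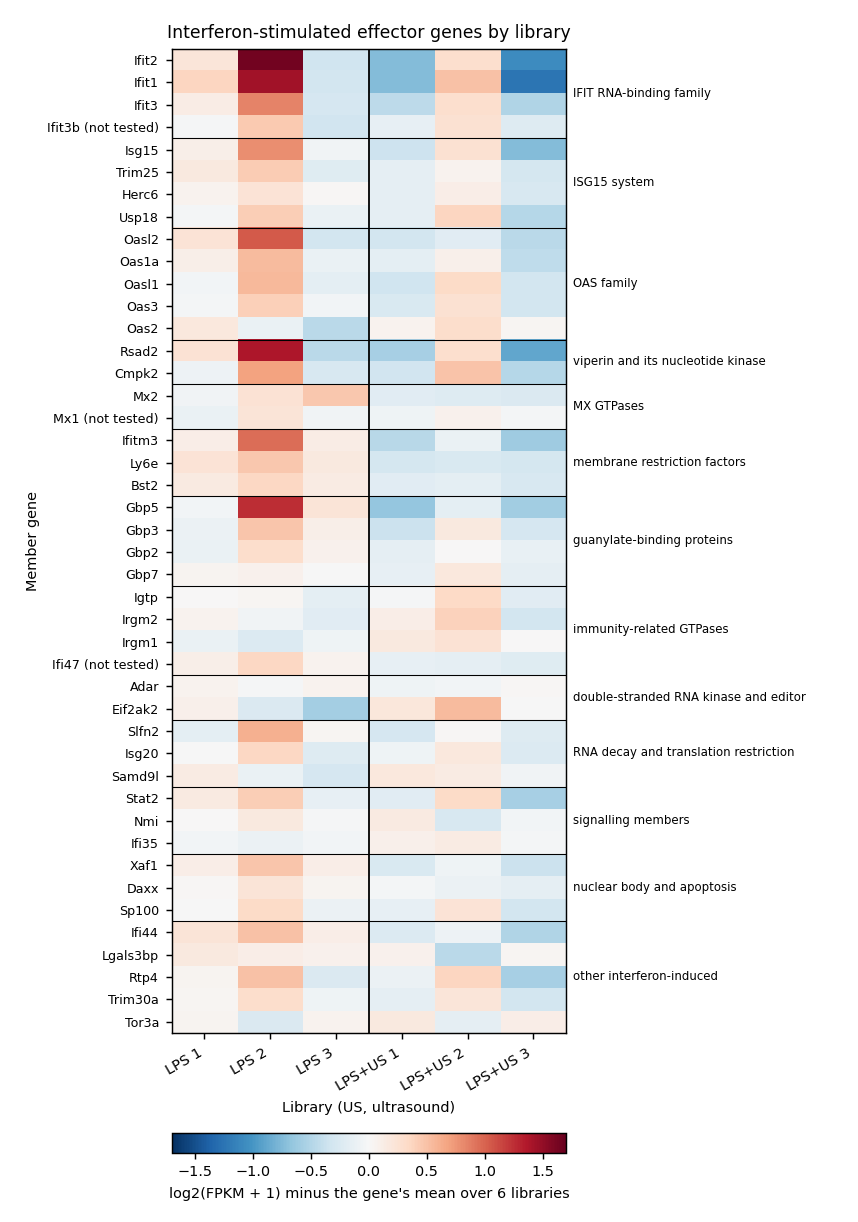
Each row is 1 of the 44 members, each column a library, and the colour is log2(FPKM + 1) minus the gene's mean over the 6 libraries, with rows grouped by role. LPS library 2 is the highest of the 6 in 29 of the 41 tested members, and in most rows the ultrasound library is lower than the LPS library of the same number.

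Leaving out LPS library 2 left 28 of 38 tested members lower (53.9% of all genes), with a median of -0.08. Leaving out ultrasound library 3 gave -0.12 and leaving out ultrasound library 2 gave -0.40. Without both libraries numbered 2 the median was -0.22 and 31 of 38 members were lower (55.5% of all genes). Ifit3, Gbp5 and Oasl2 fell under the minimum of 1 FPKM without LPS library 2, and Ifit3 also without ultrasound library 2. Their means were 1.36, 2.09 and 1.56 FPKM with LPS and 0.689, 0.498 and 0.534 with ultrasound. They thus passed the minimum only through the LPS group, where they are high, and their part in the counts of lower members is no support. With a minimum mean of 5 FPKM, which left them out, 30 of 38 members were lower. The median was then -0.21 (-0.01 over all genes).

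The promoters of the members are shown as background. RefSeq promoter sequences (build GRCm38.p6, 250 bases before to 50 after the start) were matched by symbol for 37 of the 44 members. The core of the interferon-stimulated response element was searched on both strands as GAAA, any 2 bases, GAAA, and occurred in 19 of the 37 members (51.4%) against 3.99% of 27025 genes. The core of the interferon gamma activated site, TTCNNNGAA, which reads the same on both strands, occurred in 12 of the 37 (32.4%) against 9.55%, and 8 members held both. A match describes letters in the window and is not proof of a bound site. The members were listed as genes that interferons induce. An excess of these cores therefore follows from how the list was made and is not a result of these libraries. The windows below are upstream of the start only, written 5′ to 3′ on the strand of the gene, with each match to the response element core in capitals. The first 8 belong to members that were lower with ultrasound in 3 of 3 pairs, and the last 3 to immunity-related GTPases, whose fitted differences were above 0.
Ifit1 (chr19:34640760-34640838, plus strand): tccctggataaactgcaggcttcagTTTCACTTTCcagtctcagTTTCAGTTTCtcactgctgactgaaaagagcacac
Ifit3 (chr19:34583348-34583441, plus strand): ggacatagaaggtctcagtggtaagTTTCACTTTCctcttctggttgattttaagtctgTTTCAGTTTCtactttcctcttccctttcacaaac
Isg15 (chr4:156200850-156200921, minus strand): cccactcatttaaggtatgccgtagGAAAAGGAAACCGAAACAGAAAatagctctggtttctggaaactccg
Oas1a (chr5:120907526-120907570, minus strand): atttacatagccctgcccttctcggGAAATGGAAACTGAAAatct
Rsad2 (chr12:26456538-26456597, minus strand): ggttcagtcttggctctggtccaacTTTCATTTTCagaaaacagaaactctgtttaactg
Bst2 (chr8:71537562-71537627, minus strand): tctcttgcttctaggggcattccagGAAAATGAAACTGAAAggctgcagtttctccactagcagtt
Stat2 (chr10:128270251-128270310, plus strand): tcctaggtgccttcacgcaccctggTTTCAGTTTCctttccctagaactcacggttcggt
Gbp5 (chr3:142496744-142496803, plus strand): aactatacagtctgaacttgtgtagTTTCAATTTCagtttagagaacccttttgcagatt
Irgm1 (chr11:48871421-48871475, minus strand): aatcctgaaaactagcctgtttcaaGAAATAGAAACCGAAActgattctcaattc
Irgm2 (chr11:58214888-58214947, plus strand): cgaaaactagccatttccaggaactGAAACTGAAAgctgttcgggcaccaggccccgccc
Igtp (chr11:58199497-58199555, plus strand): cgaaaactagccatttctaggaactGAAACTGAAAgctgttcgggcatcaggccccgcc

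The 94-base window of Ifit3 is also found, letter for letter, before Ifit3b (0 differing bases), and the windows of Igtp and Irgm2 differ in 2 of 59 bases. A match to the response element core did not separate lower from higher members. Lack of a match in this window is not lack of the element, and its part in the differences was not tested. Of the 18 tested members with a match, 14 were lower (median -0.30), and of the 17 with a promoter but no match, 15 were lower (median -0.22).

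The product of Ifit1 binds viral RNA that lacks the host cap modification and blocks its translation. Ifit1 (ENSMUSG00000034459) was at 11.1, 24.3 and 6.62 FPKM in LPS libraries 1, 2 and 3 and at 4.68, 12.3 and 2.99 FPKM in ultrasound libraries 1, 2 and 3. The groups overlapped, because ultrasound library 2 lay above LPS libraries 1 and 3, yet each ultrasound library was below its same-numbered LPS library by a similar step, -1.09, -0.92 and -0.93 on the log2 scale. The difference was -0.98 ± 0.56 (SE) without the block (limma adjusted p = 0.43) and -0.98 ± 0.06 with it (adjusted p = 0.0355), so Ifit1 fell in the blocked fit alone. Leaving out pair 1, 2 or 3 from the blocked fit gave adjusted p-values of 0.0512, 0.0868 and 0.265, and over all 23 alternatives the range was 0.0355 to 0.772. Ifit2 was at 5.93, 17.8 and 3.77 FPKM with LPS and at 2.62, 6.32 and 1.86 with ultrasound, again lower in 3 of 3 pairs (-1.01 ± 0.56, limma adjusted p = 0.42). Without LPS library 2 these differences were -0.52 for Ifit1 and -0.44 for Ifit2, and that of Ifit1 was -1.48 without ultrasound library 2 and -0.61 without ultrasound library 3. The near-identical genes Ifit3 and Ifit3b were far lower, with means of 1.36 ± 0.956 (SD, n = 3) and 0.389 ± 0.382 FPKM with LPS and 0.689 ± 0.551 and 0.314 ± 0.245 with ultrasound. Of the 50-base words in Ifit3 transcripts, 51.2% also occur in Ifit3b (GENCODE M21), so the division of reads between them is uncertain.

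ISG15 is a ubiquitin-like protein that is attached to newly made proteins during infection. Isg15 (ENSMUSG00000035692), the fifth most abundant member, was at 168, 271 and 149.6 FPKM with LPS and at 122, 188 and 93.7 with ultrasound. Its difference of -0.55 ± 0.30 was seen in 3 of 3 pairs and did not pass (limma adjusted p = 0.41, and 0.058 with the block), and it was -0.30 without LPS library 2 and -0.32 without ultrasound library 3. Herc6, the ligase gene for ISG15 in mice, stood at 5.78, 6.63 and 5.57 FPKM with LPS and at 4.86, 6.01 and 4.36 with ultrasound (-0.21 ± 0.12, limma adjusted p = 0.44), with overlapping groups. The Herc6 difference was -0.32 without ultrasound library 2 and -0.12 without ultrasound library 3. Trim25, a ligase gene of RIG-I signalling, and Usp18, which removes ISG15 and dampens the interferon receptor, were also lower in 3 of 3 pairs, by -0.26 ± 0.17 and -0.18 ± 0.23. All 4 genes of the system were highest in library 2 in both groups.

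The OAS enzymes make 2′-5′ linked oligoadenylates in response to double-stranded RNA, and these activate the RNA-degrading enzyme RNase L. Oas1a was at 88.7, 120.3 and 76.5 FPKM with LPS and at 73.9, 88.0 and 60.9 with ultrasound (-0.34 ± 0.19, limma adjusted p = 0.42). Oas1a was lower in 3 of 3 pairs, and at -0.16 without LPS library 2 and -0.21 without ultrasound library 3. Of its 50-base words, 57.6% also occur in Oas1g, so its reads cannot all be told from those of that gene. Oasl1 (-0.22 ± 0.24) and Oas3 (-0.21 ± 0.18) were likewise lower in 3 of 3 pairs. Oasl2 was at 1.24, 2.91 and 0.534 FPKM with LPS and at 0.532, 0.677 and 0.392 with ultrasound (-0.64 ± 0.31, limma adjusted p = 0.38). Oas2 went the other way, at 46.0, 37.4 and 29.2 FPKM with LPS and 42.4, 49.8 and 41.3 with ultrasound (0.26 ± 0.16, limma adjusted p = 0.47). It was higher in pairs 2 and 3 and lower in pair 1, and its neighbour in the genome is Oas3.

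Viperin, the product of Rsad2, makes a chain-terminating nucleotide that stops viral polymerases, and the neighbouring gene Cmpk2 encodes a nucleotide kinase that supplies it. Rsad2 was at 94.9, 209 and 57.8 FPKM with LPS and at 53.9, 97.96 and 42.7 with ultrasound. The values of LPS library 2 and ultrasound library 2 were the highest of their groups, the groups overlapped, and the difference was -0.77 ± 0.50 (limma adjusted p = 0.48, and 0.068 with the block). The Rsad2 difference was -0.28 without LPS library 2, -1.20 without LPS library 3 and -0.62 without both libraries numbered 2. Cmpk2 followed the same order of libraries at a lower level, with means of 7.81 ± 3.28 and 6.598 ± 2.93 FPKM, and its pair differences of -0.24, -0.20 and -0.22 were close to one another.

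The MX proteins are dynamin-like GTPases that block incoming viral ribonucleoproteins. Mx2 was at 5.66, 7.19 and 8.52 FPKM with LPS and at 5.08, 4.95 and 4.85 with ultrasound (-0.43 ± 0.13, limma adjusted p = 0.24). The groups did not overlap, and here the highest library was LPS library 3, unlike most members. Mx1 was at most 0.333 FPKM in any library and was not tested.

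In the membrane restriction factors the groups did not overlap, and none passed limma's adjusted threshold without the block. Bst2, which tethers budding virus particles to the cell surface, was the most abundant member, at 303, 351 and 301 FPKM with LPS and 239, 243 and 225 with ultrasound (-0.43 ± 0.08, limma adjusted p = 0.15). Ly6e, a lipid-anchored surface protein gene that restricts coronavirus entry, was at 16.01, 18.8 and 15.2 FPKM with LPS and 10.7, 11.1 and 10.7 with ultrasound (-0.57 ± 0.09, limma adjusted p = 0.13). Ifitm3, whose product blocks virus fusion in endosomes, was at 185, 329 and 186 FPKM with LPS and 123, 158 and 112 with ultrasound (-0.79 ± 0.24, limma adjusted p = 0.23). For each of the 3 genes the ultrasound libraries lay below every LPS library, as they did for 13.4% of all genes. In Bst2 and Ly6e the spread within the ultrasound group was small, with SDs of 9.21 and 0.196 FPKM, and without LPS library 2 the differences were -0.36 and -0.49. With sample weights, which give less influence to libraries that fit poorly, these 2 genes passed as lower (limma adjusted p = 0.0355 for Bst2 and 0.0221 for Ly6e, where 1.35% of all genes passed as lower). Over the 23 alternatives the adjusted p ran from 0.0355 to 0.568 for Bst2 and from 0.0221 to 0.526 for Ly6e. Ifitm3 is given in full although the naming rule did not take it, and was chosen after its values were seen. Its difference was -0.52 without LPS library 2 and -0.66 without both libraries numbered 2.

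**Figure D3:**
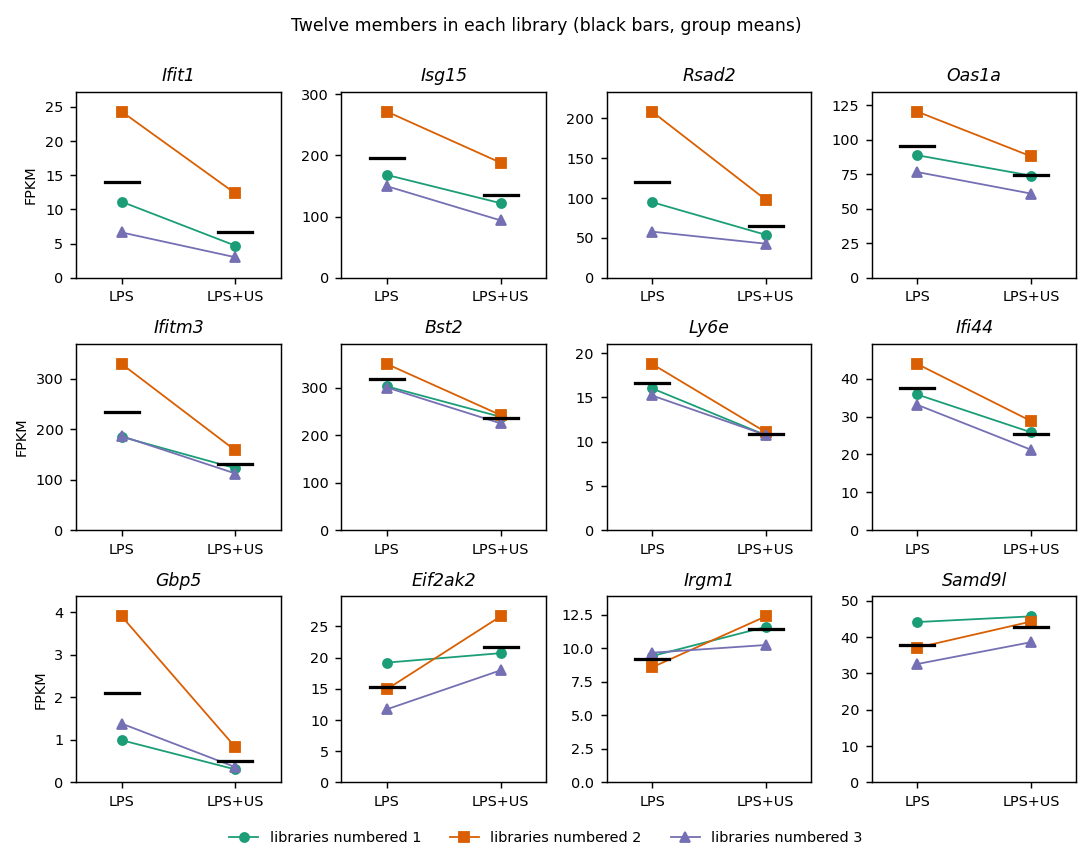
FPKM (vertical axes, from 0) of 12 members in the LPS and LPS plus ultrasound (US) libraries, with lines joining libraries of the same number and black bars at the group means. The lines of the first 9 genes all slope down, those of Eif2ak2, Irgm1 and Samd9l all slope up, and the squares of number 2 are the top points in most panels.

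The guanylate-binding proteins assemble on the membranes of bacteria and of pathogen vacuoles and help to open them. Gbp5, which also promotes inflammasome assembly, was at 0.993, 3.91 and 1.38 FPKM with LPS and at 0.306, 0.829 and 0.360 with ultrasound. The groups were separate, LPS library 2 was far above the others, and the level was near the minimum for testing (-0.95 ± 0.33, limma adjusted p = 0.26). Gbp3 was at 20.3, 30.6 and 23.4 FPKM with LPS and at 16.8, 24.6 and 17.6 with ultrasound (-0.32 ± 0.19, limma adjusted p = 0.44), at -0.16 without LPS library 2 and -0.48 without ultrasound library 2. Gbp2 was lower in 3 of 3 pairs (-0.18 ± 0.11) and Gbp7 in 2 of 3 (-0.08 ± 0.10). Gbp5, Gbp7 and Gbp3 are neighbours in the genome, and their differences ran from -0.95 to -0.08.

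The immunity-related GTPases, which act on vacuoles holding parasites and bacteria and regulate autophagy, had fitted differences above 0 in the 3 tested genes, none past the threshold. Irgm1, a regulator of this family, was at 9.42, 8.58 and 9.67 FPKM with LPS and at 11.6, 12.4 and 10.2 with ultrasound (0.28 ± 0.09, limma adjusted p = 0.26, and 0.13 with the block). The groups were separate and the difference was positive in 3 of 3 pairs. Irgm2 was at 10.3, 9.34 and 8.47 FPKM with LPS and at 10.7, 13.2 and 7.70 with ultrasound, a difference of 0.13 ± 0.18 that turned to -0.04 without ultrasound library 2. That of Irgm2 was 0.07 without LPS library 3 and 0.32 without ultrasound library 3. Igtp, which neighbours Irgm2 and shares 11.8% of its 50-base words with it, had a difference of 0.09 ± 0.15 but was lower in 2 of 3 pairs. Ifi47 went the other way and was not tested, with 0.947, 1.33 and 0.896 FPKM with LPS and 0.650, 0.634 and 0.582 with ultrasound.

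Eif2ak2 encodes PKR, the kinase that stops translation when it senses double-stranded RNA, and Adar encodes the enzyme that edits such RNA and so keeps PKR quiet. Eif2ak2 had the most positive difference of the members, with 19.2, 14.9 and 11.7 FPKM with LPS and 20.7, 26.6 and 18.0 with ultrasound (0.49 ± 0.20, limma adjusted p = 0.31). It was higher in 3 of 3 pairs, by 0.10, 0.79 and 0.58, and the groups overlapped because LPS library 1 lay above ultrasound library 3. Without LPS library 3 the Eif2ak2 difference was 0.33. Adar varied little, with means of 40.0 ± 1.14 and 38.2 ± 1.24 FPKM (-0.07 ± 0.06).

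The next group holds 3 members that act on RNA or translation. Slfn2, a Schlafen family gene, was at 141, 240.0 and 162 FPKM with LPS and at 130.2, 161 and 136 with ultrasound (-0.32 ± 0.19, limma adjusted p = 0.45), and its difference was -0.10 without LPS library 2 and -0.48 without LPS library 1. Samd9l, an antiviral factor that represses translation, was at 44.1, 37.1 and 32.6 FPKM with LPS and at 45.7, 44.2 and 38.6 with ultrasound (0.18 ± 0.12, limma adjusted p = 0.50) and was higher in 3 of 3 pairs. The Samd9l difference was 0.08 without LPS library 3 and 0.29 without LPS library 1. Isg20, a 3′ to 5′ exonuclease gene, had means of 13.5 ± 3.00 and 12.6 ± 1.96 FPKM, a step smaller than either SD.

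Among the signalling members, Stat2, the subunit specific to the type I interferon complex, was at 7.41, 9.12 and 5.83 FPKM with LPS and at 5.62, 8.51 and 4.09 with ultrasound (-0.29 ± 0.24, limma adjusted p = 0.58). It was lower in 3 of 3 pairs with overlapping groups. The Stat2 difference was -0.15 without LPS library 2, -0.43 without LPS library 3, -0.52 without ultrasound library 2 and -0.07 without ultrasound library 3. Ifi35 and Nmi encode partner proteins of related structure. Ifi35 was at 49.0, 46.7 and 48.6 FPKM with LPS and at 53.8, 55.4 and 49.3 with ultrasound, separate and slightly higher (0.13 ± 0.07, limma adjusted p = 0.41). Nmi had no common direction over the pairs (-0.11 ± 0.12).

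The nuclear body and apoptosis members were all lower in 3 of 3 pairs. Xaf1, an antagonist of the apoptosis inhibitor XIAP, was at 16.4, 21.3 and 16.3 FPKM with LPS and 12.5, 14.2 and 11.5 with ultrasound (-0.46 ± 0.13, limma adjusted p = 0.22). Daxx, a histone chaperone gene of PML nuclear bodies, was at 16.6, 19.0 and 16.8 FPKM with LPS and 15.9, 15.1 and 14.6 with ultrasound (-0.19 ± 0.08, limma adjusted p = 0.33). Both had separate groups, and Sp100, another nuclear body gene, did not (-0.15 ± 0.17).

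Of the remaining 5 members, Ifi44 was at 35.9, 43.9 and 33.1 FPKM with LPS and at 25.9, 28.9 and 21.3 with ultrasound, with separate groups (-0.55 ± 0.14, limma adjusted p = 0.21, and 0.058 with the block). Lgals3bp, a secreted galectin-binding glycoprotein gene and the third most abundant member, was at 191, 186 and 179.5 FPKM with LPS and at 179.9, 125 and 176 with ultrasound. Its difference of -0.23 ± 0.14 (limma adjusted p = 0.46) came mostly from ultrasound library 2 and was -0.06 without that library. Trim30a, a TRIM protein gene that restrains TLR signalling, and Rtp4, a receptor transport protein gene, were lower in 3 of 3 pairs (-0.17 ± 0.15 and -0.20 ± 0.27). Tor3a, a torsin family ATPase gene and the next in abundance, was higher in 3 of 3 pairs by 0.12, 0.09 and 0.05 (0.09 ± 0.12).

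**Figure D4:**
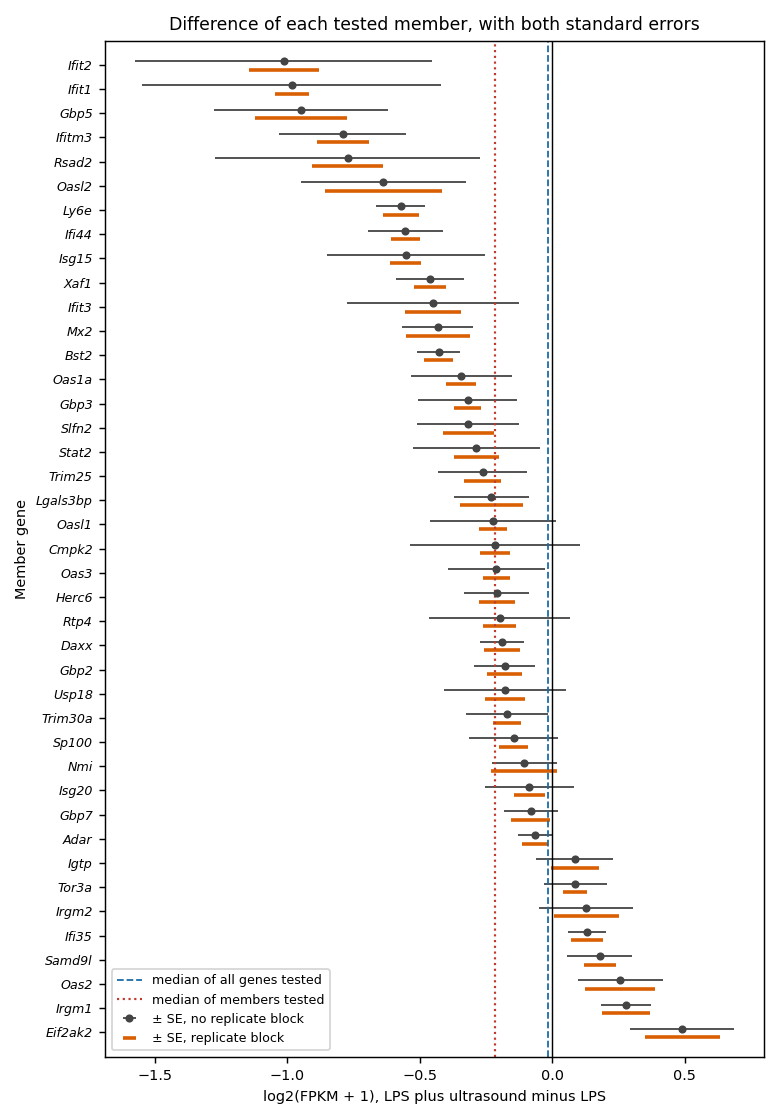
Difference in log2(FPKM + 1), LPS plus ultrasound minus LPS (horizontal axis), for the 41 tested members, with the standard error without the block (thin bars) and with the replicate number as a block (thick bars). The members run from -1.01 for Ifit2 to 0.49 for Eif2ak2, and the dotted line of the members' median at -0.22 lies left of the dashed line of all genes at -0.02.

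Interferon ligand genes were almost absent at this time point. Ifnb1 was listed at 0 in all libraries except LPS library 2, at 0.0455 FPKM, and 6 of the 12 ligand and receptor genes listed for the comparison were at 0 in every library. The receptor genes had similar levels in both groups. Ifnar1 was at 18.4, 19.3 and 18.6 FPKM with LPS and 16.5, 15.6 and 18.8 with ultrasound, with a difference of -0.14 ± 0.09 (limma adjusted p = 0.46). Ifnar2 had means of 25.1 ± 1.27 and 26.3 ± 2.21 FPKM, Ifngr1 12.3 ± 0.981 and 11.3 ± 0.854, and Ifngr2 33.0 ± 2.21 and 35.0 ± 1.76.

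Genes of the TRIF branch of TLR4 were lower in 8 of 10 (80%, against 53.9% of all genes), with a median of -0.24. Of these genes, 0 passed the adjusted threshold in limma with or without the block. At an unadjusted limma p below 0.05, 5 were lower (50%, against 9.16% of all genes) and 1 higher (10%, against 6.18%). Ticam2, the adaptor TRAM that links TLR4 to TRIF, was at 12.7, 19.0 and 16.7 FPKM with LPS and at 7.64, 7.14 and 9.39 with ultrasound (-0.91 ± 0.16, limma adjusted p = 0.14, and 0.063 with the block). Ticam1, the gene of TRIF itself, was at 40.9, 47.1 and 42.5 FPKM and at 35.3, 33.6 and 35.1 (-0.32 ± 0.08, limma adjusted p = 0.19). Ikbke, the gene of the kinase IKKε, was at 27.1, 37.4 and 34.3 FPKM and at 20.2, 26.0 and 22.4 (-0.50 ± 0.14, limma adjusted p = 0.22). All 3 genes had every ultrasound library below every LPS library, as 5 of the 10 in the list did (50%, against 13.4% of all genes). Traf3 had every ultrasound library above every LPS library (1 of 10, 10%, against 9.8% of all genes). Ticam2, Ticam1 and Ikbke were given because they have the smallest p of their list, so their separation follows in part from that choice.

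Signalling and feedback genes downstream of the receptor were lower in 9 of 13 (69.2%, against 53.9% of all genes), with a median of -0.12. Of these genes, 0 passed the adjusted threshold in limma with or without the block. At an unadjusted limma p below 0.05, 3 were lower (23.1%, against 9.16% of all genes) and 0 higher (6.18% of all genes). Irf9, the DNA-binding partner of Stat2 at the response element, had means of 15.2 ± 1.197 and 15.5 ± 0.925 FPKM (0.03 ± 0.09, limma adjusted p = 0.89). Irf7, the factor that amplifies interferon production, was at 35.8, 62.3 and 36.6 FPKM with LPS and 29.6, 39.1 and 27.0 with ultrasound (-0.45 ± 0.23, limma adjusted p = 0.39). The 3 smallest p in this list were those of the feedback inhibitor gene Socs3 (-0.46 ± 0.09, limma adjusted p = 0.15), Irf1 (-0.41 ± 0.13, 0.25) and Irf8 (-0.73 ± 0.26, 0.27).

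A second list of 60 interferon-stimulated genes that are not members had 44 tested. Of these, 34 were lower (77.3%, against 53.9% of all genes) and 10 higher, with a median of -0.17. The list was chosen with earlier results of these data known, so it is not independent support for the members. In 30 of the 44 library 2 was the highest in both groups (68.2%, against 27.6% of all genes). Lower in 3 of 3 pairs were 27 (61.4%, against 30.9%). Without the block 0 passed the adjusted threshold in limma (at an unadjusted p below 0.05, 12 were lower, against 9.16% of all genes, and 0 higher, against 6.18%), and with it 1, the RNA sensor gene Ifih1, which was named after its values were seen, did as lower (limma adjusted p = 0.256 without and 0.0474 with the block, where 0.0799% of all genes passed as lower). The smallest p belonged to Phf11d, at 17.3, 27.9 and 16.8 FPKM with LPS and 10.6, 13.3 and 8.83 with ultrasound (-0.85 ± 0.22, limma adjusted p = 0.21), to the nucleic acid sensor gene Zbp1 (-0.97 ± 0.28, 0.22) and to Phf11b (-0.61 ± 0.18, 0.22). Both PHF11 genes and Zbp1 had separate groups, as 12 of the 44 did in the lower direction (27.3%, against 13.4% of all genes). With sample weights, limma called 1 gene as lower in each of the last 3 lists, Ticam2 of 10, Socs3 of 13 and Phf11d of 44, where 1.35% of all genes passed as lower.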

How the data were processed

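RNA of 6 libraries was sequenced as paired ends after oligo(dT) selection, per the labels' protocols. The deposited table gives FPKM computed by the authors. For the mouse data, the aligner, quantifier and build were not given in the sources used here. A rat assembly (mRatBN7.2) is listed per the submitters' processing notes, and rat muscle appears in the extraction protocol, while 55335 of 55335 identifiers are mouse genes. All table columns were used, matched to libraries by initial and number. Symbols came from the gene name table (55154 identifiers matched).

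The 11270 genes averaging 1 FPKM or more (44065 did not) were compared on log2(FPKM + 1), a scale that understates changes of low genes. The two-sided test was limma (version 3.58.1, R version 4.3.3) with a robust variance trend, and p-values were adjusted by Benjamini-Hochberg, with a threshold of 0.05. The script was tested on simulated data. Only 33.5% to 37.8% of low values lay within 5% of a whole multiple of the commonest step, so no counts were recovered and depth is unknown. FPKM is relative to the library's sum, and reads of overlapping or near-identical genes can be divided in ways the table does not show. Deviations from group means correlated across genes by 0.18, 0.44 and 0.41 between same-numbered libraries, and by -0.40 to 0.06 between libraries of unlike number. Deviations from a group mean cancel out within the group for each gene, so positive correlations at the same number make the others negative on balance. The contrast between the 2 ranges is therefore not separate support for pairing, and the correlations were not tested. The number was taken as pairing from the data and the titles.

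Members given per library were the 2 smallest p of each role group (1 in groups of 2), any member past the threshold with or without the block, Isg15 and Stat2, and for other lists the 3 smallest p plus interferon and receptor genes, Irf7 and Irf9; some items that the rule or the marker lists took are not reported here. Members and lists were chosen with earlier results of these data known. GENCODE M21 served for overlaps, neighbours and shared words of 50 bases. In 8 of the 44 members more than 10% of these words also occur in other genes. These are Ifit3, Ifit3b, Oas1a and Igtp, and also Gbp7 (12.7%), Herc6 (12.5%), Rtp4 (11.6%) and Ifitm3 (10.0%). Alternatives were the pseudocount, filter, scaling, moderation, sample weights, the block and left-out libraries.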

Additional observations from a re-analysis of the deposited data

How the results depend on the processing

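The table gives no fragment counts, so counting error is unknown, and values near 1 FPKM are the least certain. The median of the members was -0.18 to -0.24 under the 11 alternatives that kept all libraries. Lower members numbered 30 of 38 with a minimum mean of 5 FPKM, 36 of 44 with the looser filters, and 32 or 33 of 41 otherwise. Of all genes, 53.9% were lower with the settings used above. Of all genes, 2 were called; this became 1 with a minimum mean of 5 FPKM, 5 with libraries scaled to the same sum, 223 with sample weights, 13 with the replicate block, 6 and 5 without both libraries numbered 2 or 3, and 16, 0 and 0 with the replicate block without pair 1, 2 or 3. Leaving out 1 library gave 2 to 8, the most without LPS library 2. Members called numbered 2, Bst2 and Ly6e, with sample weights and 1, Ifit1, with the block. The blocked call ended (0 members) without any 1 pair, where fewer samples are left. Of 521 values for 23 members, 515 kept direction and call, 3 gained a call and 3 reversed. The reversals were all of Irgm2, at -0.0376 without both libraries numbered 2, with or without the block, and -0.0380 without ultrasound library 2, in a range of -0.0380 to 0.317 over single left-out libraries; the cause was not tested. Scaling moved the median of all genes to between -0.03 and 0.00, and 31, 29 and 29 members were lower in 3 of 3 pairs under equal sums, median-ratio and quantile scaling.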

Other observations

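A pair of genes outside the members had a single library far from the others. Ifitm2, a family gene of Ifitm3 in the list of further interferon-stimulated genes, was at 153, 63.8 and 171 FPKM with LPS and at 133, 153 and 144 with ultrasound, so LPS library 2, in which Ifitm3 was highest, had its lowest value. Tlr4, the LPS receptor gene, was at 3.41, 2.95 and 15.2 FPKM with LPS and at 4.74, 4.30 and 4.68 with ultrasound, with LPS library 3 the high one. Both genes were chosen after their values were seen, and no cause was tested.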
